A study of Mus musculus with 4 samples.

Results

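Transcripts of 37 genes of the primary cilium and its transport machinery were followed in mouse bone marrow progenitors. The genes were chosen by name: subunits of the intraflagellar transport (IFT) particles and their motors, the BBSome, the basal body and transition zone, ciliary GTPases, and hedgehog regulators that act at the cilium. The array's annotation named a probe set for 34 of them, and 57 probe sets in all, out of 45037 probe sets for 18193 named genes. Rpgrip1l, Arl13b and Arl6 had no probe set named with that gene alone and were not analysed here. Every mouse carried floxed Smo (Smo flox/flox), the gene of the hedgehog signal transducer Smoothened. Mice without the Cre transgene (Mx1Cre-) were the wild type (WT) and those with it (Mx1Cre+) the Smo-deficient group. The Mx1 promoter responds to interferon and acts in many cell types, so deletion is not limited to blood cells. All mice, WT included, were given polyI:C, which induces interferon, intraperitoneally at 20 ug/g in 3 injections, and bone marrow was collected 6 weeks afterwards. Marrow of 4 mice of mixed sex was pooled for each genotype, and 2 populations were sorted from each pool. LSK cells (Lin-ckit+Sca1+) hold the stem cells and multipotent progenitors, and MP cells (Lin-ckit+Sca1-) are myeloid progenitors. The strain labels read C57BL/6x129 for WT LSK, C57BL/6x130 for Smo-deficient LSK, C57BL/6x131 for WT MP and C57BL/6x132 for Smo-deficient MP, and neither the meaning of the different numbers nor the age of the mice is stated in the labels. Each of the 4 groups had 1 Affymetrix array, so no value has a replicate of its own group.

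The primary cilium is a single, non-motile protrusion that grows from the mother centriole of many vertebrate cells. IFT-B particles, drawn by kinesin-2, carry building material to its tip, and IFT-A particles with dynein-2 carry it back. The BBSome moves membrane proteins out of the cilium, and the transition zone at its base acts as a gate. Smoothened signals from the ciliary membrane in vertebrates, and the GLI factors are processed there, which ties hedgehog signalling to IFT. Blood cells have long been regarded as cells with few or no cilia, and T cells use IFT proteins at the immune synapse without a cilium. The arrays measured transcripts, and whether these cells carried a cilium was not measured.

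Most of the cilium genes gave a signal above the median of every array. Each gene is described by its probe set with the highest mean signal, as log2 of the deposited intensity. Values of a population are given with the WT array first and the Smo-deficient array second. The array medians were 7.23 and 7.22 in LSK and 7.23 and 7.23 in MP. Of the 34 genes, 26 (76.5%) lay above the median on all 4 arrays, against 11310 of the 18193 named genes (62.2%). The count was 28 on the WT LSK array, 29 on Smo-deficient LSK, 29 on WT MP and 28 on Smo-deficient MP. All 10 IFT-B genes, both IFT-A genes, the 3 kinesin-2 genes and both dynein-2 genes were among the 26. The genes below the median on at least 1 array came from the BBSome, the transition zone and the hedgehog regulators. Bbs1 was above the median on 1 array, and Bbs5, Mks1 and Evc2 on 3. Bbs2, Bbs7, Cep290 and Gpr161 were below it on all 4 with every probe set they have. Over all 57 probe sets, 36 were above the median on every array, 8 on some and 13 on none. A place above the median does not show that a gene was expressed: of 14 genes of motile cilia, a structure of epithelia and sperm, 6 were above the median on all 4 arrays, among them Hydin (7.75 to 7.95) and Ccdc40 (7.97 to 8.52), while Foxj1, the master factor of motile cilia, was below it on all 4 (6.39 to 6.60).

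**Figure D1:**
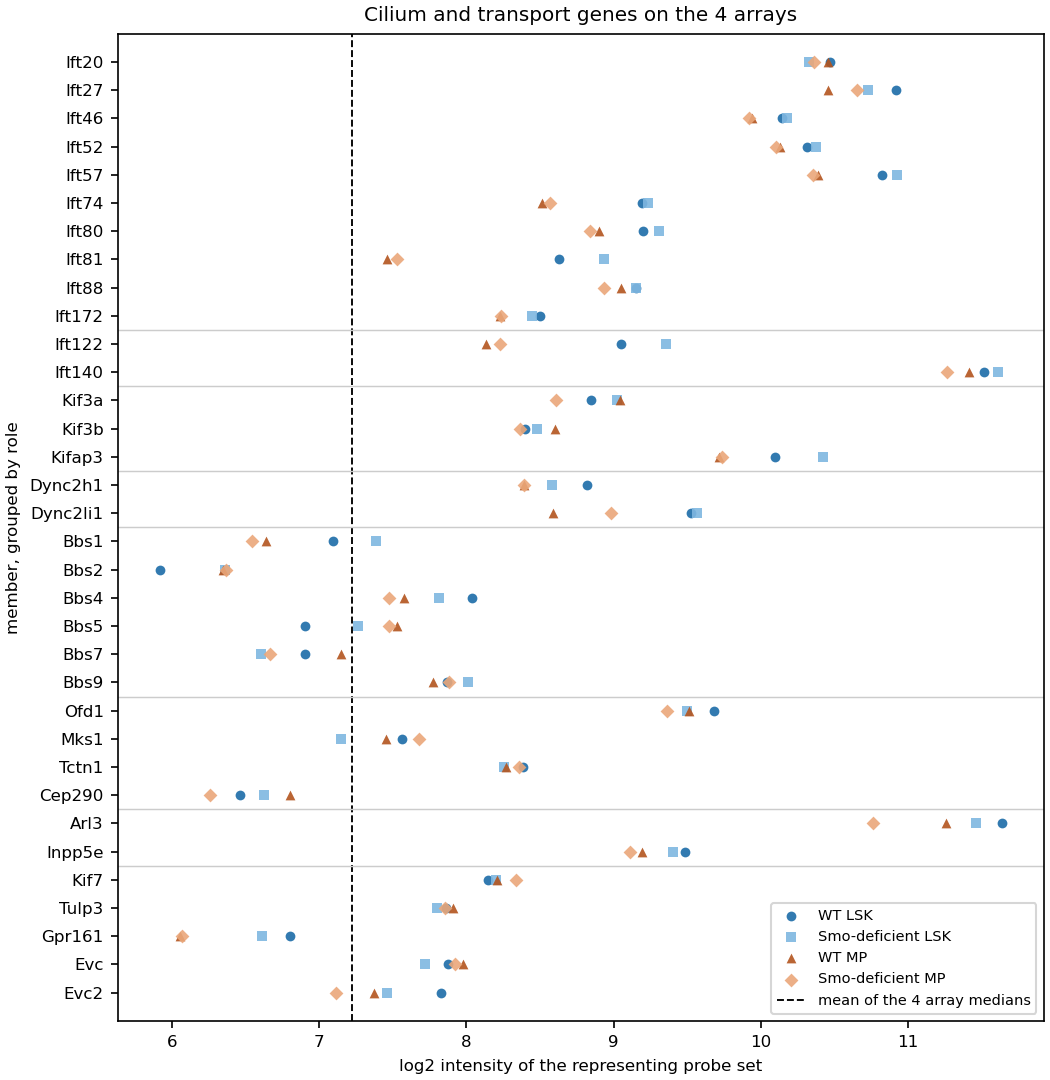
Log2 intensity (horizontal axis) of the probe set that represents each of the 34 genes, 1 symbol per array, with grey lines between functional groups and the mean array median dashed. The IFT and motor genes all lie right of the dashed line, and Bbs2, Bbs7, Cep290 and Gpr161 lie left of it on all 4 arrays. Rows are different probe sets, so the distances between rows are not differences in expression.

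The populations carried the markers of their labels. Of the LSK marker genes tested, 7 of 8 were called higher in LSK than in MP (median log2 difference 1.81), and 9 of 9 MP markers were called lower (median -1.13). Kit, a sorting marker shared by both gates and the LSK marker that was not called (adjusted p = 0.0825), was at 12.51 and 12.65 in LSK and at 12.31 and 12.40 in MP. Ly6a, which encodes Sca-1, was not analysed here. Smo itself, on its brightest single-gene probe set 1427048_at, was at 10.02 and 6.96 in LSK and at 9.72 and 7.94 in MP. The labels do not say which exons are deleted, so the place of this probe set relative to them is unknown. The bacterial hybridisation spikes, added in equal amount to every array, differed between the genotypes (Smo-deficient minus WT) by a mean of -0.32 on the MP arrays and of 0.15 on the LSK arrays, over 9 probe sets.

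RFX transcription factors drive many ciliary genes through the X-box, a pair of inverted half-sites near the start of transcription. The letters GTTGCC and GTTACC, read on both strands, were searched as half-sites in RefSeq promoters of build GRCm38.p6, each with 250 bases before the start and 50 after it. An X-box was counted where 2 half-sites faced each other with at most 3 bases between them, so its half-sites are counted in both numbers. The promoter table held 33 of the 37 genes, not Ift80, Ift81, Ift122 or Dync2li1. A half-site was present for 16 of the 33 genes, in 16 of their 36 promoters (44.4%), against 6113 of all 32851 promoters (18.6%). Within the 250 bases before the start it was present in 10 of the 36 (27.8%) and in 5159 of all promoters (15.7%). An X-box was found in Ift57 and Tctn1, 5.56% of the 36, against 0.408% of all promoters. These are matches of letters, not measured binding sites.

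The 250 bases before the start of Ift57, an IFT-B gene that was higher in LSK, and of Ift74, an IFT-B gene that was higher in LSK as well but has no match, are set side by side with 40 bases around the match of 3 genes described further on. Sequences run 5′ to 3′ on the strand of the gene, and capitals mark the half-sites.
Ift57, chr16:49699044-49699293, plus strand: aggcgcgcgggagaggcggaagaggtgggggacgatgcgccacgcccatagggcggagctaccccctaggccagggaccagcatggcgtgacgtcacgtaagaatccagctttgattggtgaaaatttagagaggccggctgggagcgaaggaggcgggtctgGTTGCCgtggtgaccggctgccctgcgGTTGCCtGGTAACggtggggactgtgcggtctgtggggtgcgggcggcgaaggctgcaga
Ift74, chr4:94614241-94614490, plus strand: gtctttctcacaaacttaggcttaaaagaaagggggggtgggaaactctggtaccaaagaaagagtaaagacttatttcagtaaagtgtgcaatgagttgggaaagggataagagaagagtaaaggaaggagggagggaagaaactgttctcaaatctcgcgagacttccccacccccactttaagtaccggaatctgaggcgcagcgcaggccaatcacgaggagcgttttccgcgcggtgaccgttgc
Kifap3, chr1:163779351-163779390, plus strand: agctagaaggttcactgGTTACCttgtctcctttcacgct
Kif3a, chr11:53567254-53567293, plus strand: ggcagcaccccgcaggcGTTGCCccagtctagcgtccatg
Mks1, chr11:87853174-87853213, plus strand: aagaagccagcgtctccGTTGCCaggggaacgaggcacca
In Ift57 a lone half-site begins at -87 from the start, and a facing pair at -60 and -53 with 1 base between forms the X-box. The half-site begins at -215 in Kifap3, at -98 in Kif3a and at -24 in Mks1. The genes with and without a half-site had the same median in the array data, with no test made: the median log2 difference of LSK minus MP was 0.19 for the 14 measured genes with one (range -0.42 to 0.65) and 0.19 for the 16 without (range -0.22 to 0.67). Of those past the filter on dim probe sets, 2 of 12 with a half-site and 4 of 13 without were called higher in LSK, by the test given next. The share over all named genes past the same filter was 16.4%. Ift81 (1.29), Ift122 (1.02) and Dync2li1 (0.76), the called genes with the largest differences, had no promoter to search and are in neither group. The medians and counts by half-site therefore do not cover all called genes.

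LSK cells had higher transcript levels of 9 cilium genes than MP cells, and no cilium gene was called lower. The 9 were Ift57, Ift74 and Ift81 of IFT-B, Ift122 of IFT-A, the motor genes Kifap3 and Dync2li1, the BBSome gene Bbs4, the ciliary GTPase Arl3 and the Smoothened partner Evc2. At an unadjusted p under 0.05, 12 of the 29 tested genes were higher and 1, Bbs5, was lower. Differences of the 9 called genes ranged from 0.40 for Evc2 to 1.29 for Ift81 on the log2 scale. The study used MP as the control for genes enriched in LSK, and limma was fitted across 22518 probe sets with the pool as a block, called at a Benjamini-Hochberg adjusted p under 0.05. Of the 34 genes, 29 passed the filter on dim probe sets, a mean log2 intensity above 7.23. The share called higher was 31% of the 29, against 16.4% of 11904 named genes past the same filter, and the share called lower was 0%, against 7.54%. Both LSK arrays lay above both MP arrays for 18 of the 29 (62.1%, against 32.3% of named genes) and below them for 3 (10.3%, against 26%). The genes were chosen with earlier results of these arrays in view, so these shares are descriptions with no test. The fit rests on 2 pools of different genotype and 1 residual degree of freedom before moderation, and without the pool as a block 3 genes were called (Ift74, Ift81 and Ift122). When only probe sets with the plain suffix _at represented the genes, an alternative chosen after seeing the data, 5 of 22 tested were called. Ift81, Ift122, Kifap3 and Arl3 were not among them, since their brightest probe sets carry a suffix that allows more than 1 transcript. Kifap3 and Arl3 have no plain _at probe set, and that of Ift122 was below the filter, so they were not tested. Ift81 was tested on 1449407_at and was not called (adjusted p = 0.101). In sorted bulk cells, more cells with a transcript and more transcript per cell cannot be told apart.

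**Figure D2:**
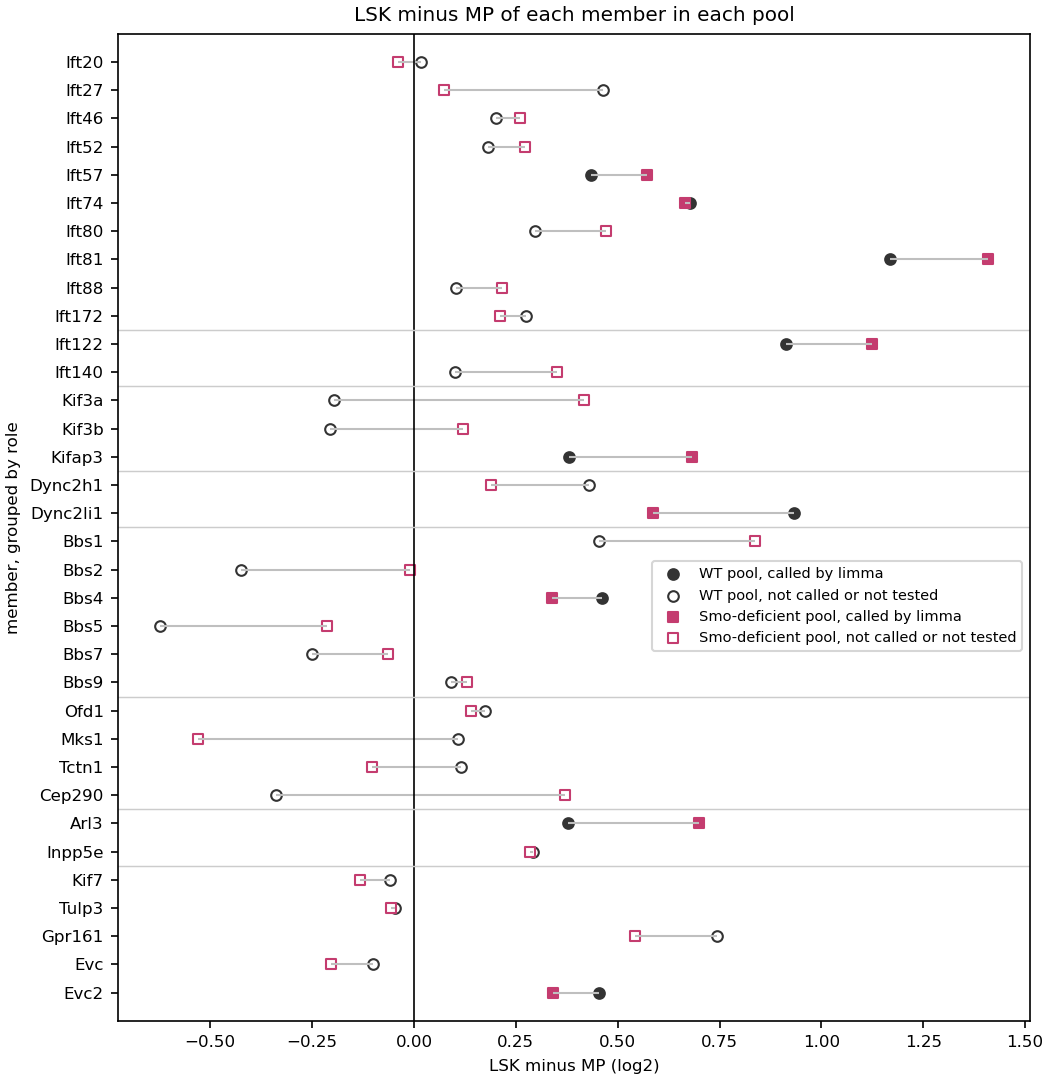
Log2 difference of LSK minus MP (horizontal axis) for each gene, with the WT pool as circles and the Smo-deficient pool as squares, filled for the 9 genes called higher in LSK by limma. Ift81 lies farthest to the right in both pools, while Kif3a and Mks1, and others such as Kif3b, lie on opposite sides of 0 in the 2 pools.

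Over all 34 genes the median of LSK minus MP was 0.19 with WT marrow, 0.27 with Smo-deficient marrow and 0.23 by the mean of both. Over all named genes the median by that mean was -0.04. The difference was above 0 in both pools for 22 of the 34 genes and for 5692 of the 18193 named genes. Among genes past the filter the median by that mean was 0.23 for the 29 cilium genes and 0.0005 for 11904 named genes. Above 0 in both pools were 20 of these 29 and 4712 of these 11904. Among the functional groups the medians were 0.26 for IFT-B, 0.62 for IFT-A, 0.11 for kinesin-2, 0.53 for dynein-2 and 0.41 for the GTPase and lipid group. They were near 0 for the BBSome (-0.02), for the basal body and transition zone (0.01) and for the hedgehog regulators (-0.05).

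IFT-B, the particle that carries tubulin and other cargo towards the tip, had 3 of its 10 genes called higher in LSK. Ift81, which binds tubulin together with Ift74, was at 8.63 and 8.94 in LSK and at 7.46 and 7.53 in MP on 1419286_s_at. Both LSK arrays were well above both MP arrays, and the MP arrays were close to the array median. The log2 difference was 1.29 ± 0.12 (limma estimate ± SE, 2 pools), 2.44-fold, with an adjusted p of 0.000916. The other Ift81 probe sets showed less: 1449407_at differed by 0.29 (adjusted p = 0.101) and 1442476_at, below the median on all arrays, by 0.03 with WT marrow and by -0.20 with Smo-deficient marrow. The size of the Ift81 difference thus rests on 1 probe set. Ift74 was at 9.19 and 9.23 in LSK and at 8.52 and 8.57 in MP. The 2 pools gave nearly the same difference, 0.68 and 0.67, with a mean of 0.67 ± 0.11 and an adjusted p of 0.00747. Ift57, a peripheral IFT-B subunit, was at 10.82 and 10.92 in LSK and at 10.39 and 10.35 in MP. Its LSK arrays were both higher, by 0.50 ± 0.11 (adjusted p = 0.0201), and without the block its adjusted p was 0.102.

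The 7 other IFT-B genes did not pass the test. Ift80 came nearest, at 9.20 and 9.31 in LSK and 8.90 and 8.84 in MP, with a difference of 0.38 ± 0.12 (adjusted p = 0.0575). Ift46, Ift52, Ift88 and Ift172 had both LSK arrays above both MP arrays with differences from 0.16 (Ift88) to 0.24 (Ift172). Ift27, a small GTPase-like subunit that links IFT-B to BBSome export, was at 10.92 and 10.73 in LSK and at 10.45 and 10.65 in MP. The populations were 0.46 apart with WT marrow and 0.07 with Smo-deficient marrow, and 2 further Ift27 probe sets were higher in LSK with WT marrow (0.42 and 0.30) and lower in LSK with Smo-deficient marrow (-0.07 and -0.33). Ift20, which also works at the Golgi, differed by -0.01 ± 0.11.

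In IFT-A, the particle of return transport, Ift122 was called higher in LSK and Ift140 was not. Ift122 was at 9.05 and 9.35 in LSK and at 8.14 and 8.23 in MP on 1441259_s_at. Its LSK level was 1.88-fold the MP level with WT marrow and 2.18-fold with Smo-deficient marrow, and the mean difference was 1.02 ± 0.12 (2.03-fold, adjusted p = 0.00204). Its other probe set, 1427239_at, was below the array median throughout and showed LSK above MP by 0.52 with WT marrow and by 0.74 with Smo-deficient marrow. Ift140 was at 11.52 and 11.61 in LSK and at 11.42 and 11.26 in MP. The groups did not overlap, but the difference of 0.23 ± 0.11 did not pass (adjusted p = 0.176).

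The motor genes were divided. Kifap3, the non-motor subunit of kinesin-2 that holds cargo, was at 10.10 and 10.42 in LSK and at 9.71 and 9.74 in MP. It was higher in LSK by 0.53 ± 0.13 (adjusted p = 0.0267), with the highest value in Smo-deficient LSK. Its other probe set, 1417181_a_at, differed by 0.09 (adjusted p = 0.626). The adjusted p of the gene was 0.131 without the block and 0.0631 with its probe sets averaged. The motor subunits Kif3a and Kif3b differed by 0.11 ± 0.16 and -0.04 ± 0.13, and for both the WT pool had LSK below MP (-0.20 and -0.21) while the Smo-deficient pool had LSK above MP (0.42 and 0.12). In dynein-2, the return motor, the light intermediate chain Dync2li1 was at 9.52 and 9.57 in LSK and at 8.59 and 8.98 in MP. All LSK values were higher, and the difference was 0.76 ± 0.13 (1.69-fold, adjusted p = 0.0086), with an adjusted p of 0.0643 without the block. The heavy chain Dync2h1 had both LSK arrays above both MP arrays by 0.31 ± 0.12 and did not pass (adjusted p = 0.113).

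The BBSome, a coat complex that carries membrane proteins along IFT trains, had 3 of its 6 genes past the filter. Bbs4, which binds the satellite protein Pcm1, was at 8.04 and 7.81 in LSK and at 7.58 and 7.48 in MP. It was higher in LSK by 0.40 ± 0.11 (adjusted p = 0.0440), and a second probe set past the filter, 1449734_s_at, by 0.66 ± 0.14 (adjusted p = 0.0178). On 1449734_s_at both MP arrays were below the array median. It passed the filter through LSK (7.44 and 7.91), which limits its call. Its other probe sets were below the median on all arrays. With WT and Smo-deficient marrow, 1434460_at differed by 0.67 and 0.77, and 1420107_at by 0.01 and -0.17. The probe set that represents Bbs4 lost its call without the block (adjusted p = 0.136), after quantile normalization (0.0536) and without the filter (0.0715). Bbs5 had the most negative difference of the 29 tested genes, at 6.91 and 7.26 in LSK and 7.53 and 7.48 in MP, a difference of -0.42 ± 0.13 (adjusted p = 0.0699). It lay below the array median on the WT LSK array, and it was called lower in LSK when all probe sets of a gene were averaged (adjusted p = 0.0358). Bbs9, a core subunit, was at 7.87 and 8.01 in LSK and at 7.78 and 7.88 in MP, and its values overlapped. The other 3 genes were too dim for the test, all of them below the median of at least 3 arrays. Bbs1, which recruits the coat to membranes with Arl6, was at 7.09 and 7.38 in LSK and 6.64 and 6.55 in MP, and without the filter it was called higher in LSK (adjusted p = 0.0191). Bbs2 was at 5.92 and 6.36 in LSK and 6.35 and 6.37 in MP. Bbs7 was at 6.90 and 6.60 in LSK and 7.15 and 6.67 in MP.

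Of the 3 tested genes of the basal body and transition zone, limma called 0, and 0 were past an unadjusted p of 0.05. Ofd1, a centriolar satellite protein, was at 9.68 and 9.50 in LSK and at 9.51 and 9.36 in MP, and LSK and MP overlapped. Tctn1, a tectonic of the transition zone, differed by 0.01 ± 0.12 between the populations. Cep290, which spans the gate, was below the array median on every array, at 6.47 and 6.63 in LSK and 6.81 and 6.26 in MP. Arl3, a GTPase that releases lipid-bearing cargo inside the cilium, was at 11.64 and 11.46 in LSK and at 11.26 and 10.76 in MP. It was higher in LSK by 0.54 ± 0.11 (adjusted p = 0.0189), and by 0.38 in the WT pool against 0.70 in the Smo-deficient pool. Without the block its adjusted p was 0.181. Inpp5e, the phosphatase that sets the lipid makeup of the ciliary membrane, differed by 0.29 in both pools and did not pass (adjusted p = 0.114).

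Among the hedgehog regulators, 1 gene of the 4 tested passed. Evc2, a partner of Smoothened at the base of the cilium, was at 7.83 and 7.46 in LSK and at 7.37 and 7.12 in MP. It was higher in LSK by 0.40 ± 0.11 (adjusted p = 0.0448), close to the threshold. Its adjusted p was 0.223 without the block and 0.0698 without the filter. Evc, which forms a complex with Evc2, differed by -0.15 ± 0.11, with both LSK arrays below both MP arrays, and did not pass (adjusted p = 0.362). Its other probe set, 1448876_at, below the median on all arrays, had both LSK arrays above both MP arrays (0.60 with WT marrow and 0.26 with Smo-deficient marrow), so the probe sets of Evc disagree as well. Kif7, the tip kinesin that controls the GLI factors, was at 8.15 and 8.20 in LSK and 8.21 and 8.34 in MP. Its values spanned a narrow range, and the difference of -0.10 ± 0.11 did not pass. Tulp3, an adapter that brings receptors into the cilium, differed by -0.05 on its brightest probe set, while 1449008_at differed by 0.47 ± 0.11 (adjusted p = 0.0240), so its probe sets disagree. Gpr161, a ciliary receptor that holds hedgehog signalling down, was below the median on all arrays, at 6.80 and 6.61 in LSK and 6.06 and 6.07 in MP. Its LSK values were higher in both pools, and without the filter it was called higher (adjusted p = 0.0106). Its other probe set, 1447353_at, also below the median on all arrays, had both LSK arrays below both MP arrays (-0.33 with WT marrow and -0.17 with Smo-deficient marrow), so the probe sets of Gpr161 disagree.

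Of the 34 genes, 14 had more than 1 probe set, and 8 of these had at least 2 past the filter. All probe sets of a gene past the filter gave the same sign of LSK minus MP for 4 of the 8 (Bbs4, Ift81, Inpp5e and Kifap3), and for 5 of the 8 in the genotype difference of either population.

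Further ciliary genes, taken from lists of the same machinery, gave mixed results in LSK minus MP. Their counts are to be read against the 16.4% of named genes past the filter that were called higher and the 7.54% called lower. Of the other IFT subunits 4 of 8 tested were called higher, Ttc30b (0.93), Hspb11 (0.71), Ttc21b (0.50) and Ttc30a1 (0.45), and 1 was called lower, the IFT-A subunit Wdr35 (-0.48). Hspb11 is the partner of Ift27 in IFT-B, and the Ttc30 proteins bind the IFT-B core. Of the other motor subunits limma called 0 of 7 higher (3 at an unadjusted p under 0.05) and 2 lower, the dynein-2 chain Wdr60 (-0.74) and Dynll1 (-0.15), a light chain shared with cytoplasmic dynein. The BBSome subunit Ttc8 was called higher (1.09), 1 of 6 in its list. Of the other transition zone genes 5 of 13 were called higher and 0 lower (also 0 at an unadjusted p under 0.05). Among the 5, Cc2d2a (1.29), Ahi1 (0.69), Invs (0.68) and Iqcb1 (0.57) were the 4 with the largest differences. Iqcb1 was below the array median on both MP arrays (7.13 and 6.98) and passed the filter through LSK (7.50 and 7.74), which limits its call. Of 17 centriole and ciliogenesis genes 3 were higher, a share near that of all named genes, among them Rab23 (0.83), a negative regulator of hedgehog signalling, and 1 was lower, Cep164 (-0.51) of the mother centriole's appendages. Of 7 cilium disassembly genes 2 were higher, the tubulin deacetylase Hdac6 (0.64) and Kif2a (0.48), and the mitotic kinase Plk1 was lower (-0.42). Of 14 hedgehog pathway genes 2 were higher, Prkacb (0.89) and Gnas (0.24), and Shh was lower (-0.42), shares near those of all named genes in both directions. The median difference was 0.33 for the other IFT subunits, 0.09 for the motor subunits and 0.09 for the BBS genes. It was 0.08 for the transition zone and 0.20 for the centriole and ciliogenesis genes. For the disassembly genes it was -0.15 and for the hedgehog pathway 0.07. Over all named genes it was -0.04, and over those past the filter 0.0005.

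**Figure D3:**
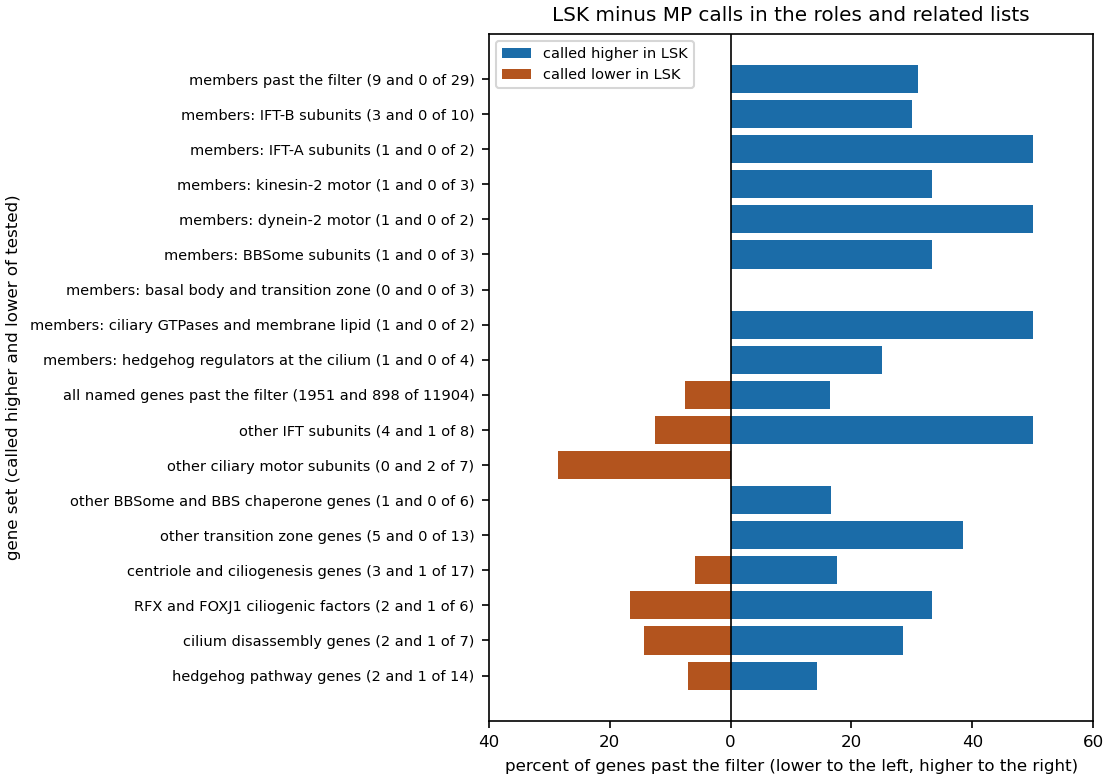
Share of tested genes called higher (right) and lower (left) in LSK than in MP, in percent (horizontal axis), for the cilium genes, their functional groups, all named genes past the filter and the related lists. The bars of the functional groups rest on 2 to 10 genes each, given in the labels, so a share of 50% can be 1 gene.

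The RFX factors, which bind the X-box, differed in direction among themselves. Rfx3, known for its role in ciliogenesis, was at 7.74 and 8.21 in LSK and at 7.06 and 7.25 in MP. It was higher in LSK by 0.82 ± 0.12 (adjusted p = 0.0051). Its WT MP value was below the array median and its Smo-deficient MP value close to it. Rfx3 passed the filter through LSK, which limits its call. Rfx7 was higher by 0.46. Rfx2, another ciliogenic factor, differed by -0.52 ± 0.11 (adjusted p = 0.0173), at 7.53 in both LSK arrays and 8.09 and 8.02 in MP. The median over the list of 7 RFX and FOXJ1 factors was 0.10.

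Markers of other cells also differed between LSK and MP. Of the mast cell and basophil markers 5 of 6 tested were called lower in LSK, with summed intensities of 4820 and 6226 in the LSK arrays and 8420 and 11189 in the MP arrays. By limma 0 of 6 tested motile cilia markers, 0 of 9 neutrophil markers, 0 of 5 T and NK cell markers and 0 of 3 mature erythroid markers were called in either direction. The neutrophil markers differed between LSK and MP in opposite directions in the 2 pools: with WT marrow 0 of 9 were higher in LSK (median -0.30), and with Smo-deficient marrow 9 of 9 were (median 0.34), so the mean over pools was near 0 (median -0.02). At an unadjusted p under 0.05, 1 motile cilia marker and 1 T and NK cell marker were higher, and 0 markers of these 4 lists were lower. The other calls were Cd68 (-0.40), 1 of 8 macrophage markers, Cd79b (0.57), 1 of 8 B cell markers, and Pdgfrb (1.32), 1 of 4 stroma and endothelium markers. Macrophage and mature erythroid markers also changed direction between the pools. With WT marrow 0 of 9 macrophage markers were higher in LSK (median -0.29), and with Smo-deficient marrow 7 of 9 were (median 0.27). For mature erythroid markers these were 0 of 4 (median -0.09) and 3 of 4 (median 0.27). The B cell medians were -0.16 and 0.15. No marker is listed at 0, since the lowest intensity in the table is 12.3. The part of these cells in the cilium gene differences was not tested.

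Between genotypes no cilium gene reached 2-fold or 1.5-fold in either population on the probe set that represents it. Of all 57 probe sets, 2 passed 1.5-fold, both of Kif3a in MP (1.58-fold on 1455652_at and 1.57-fold on 1449841_at). Among the 29 genes past the filter, Smo-deficient minus WT ranged from -0.41 (Mks1) to 0.36 (Bbs5) in LSK and from -0.49 (Arl3) to 0.39 (Dync2li1) in MP. Of the 29 genes 0 differed 2-fold in LSK, against 0.949% of named genes, and 0 in MP, against 0.563%. At 1.5-fold the counts were 0 in LSK, against 4.07%, and 0 in MP, against 4.81%. The median over all 34 genes was 0.04 in LSK and -0.04 in MP, and it changed sign with the scaling, to -0.0026 in LSK after quantile normalization and in MP to 0.011 after quantile normalization and 0.018 after cyclic loess. Over all named genes it was -0.03 in both. With 1 pool per genotype these differences have no replicate check, and no p was computed. The spike controls differed between the MP arrays by -0.32 in the same direction, and their part in the negative MP values was not tested.

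**Figure D4:**
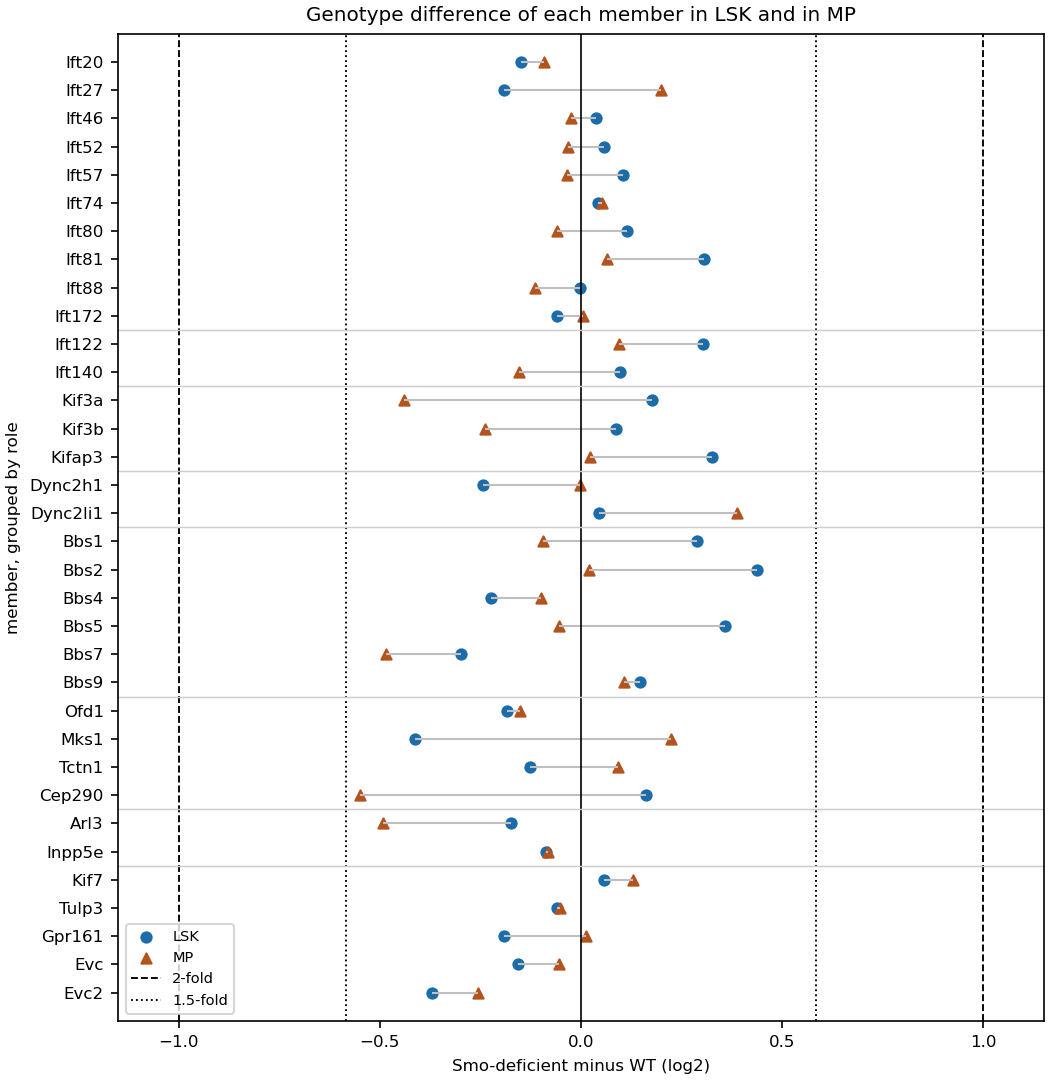
Log2 difference of Smo-deficient minus WT (horizontal axis) for each gene, with LSK as circles and MP as triangles, and lines at 1.5-fold and 2-fold. On the probe sets that represent them, all 34 genes lie inside the 1.5-fold lines in both populations. Kif3a and Mks1 lie on opposite sides of 0 in LSK and MP, as do other genes such as Ift27 and Cep290.

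Single genotype differences were set beside the spread, the scaled median absolute deviation that probe sets of similar level show in that same difference. It describes these arrays and is no replicate error. In LSK, Mks1 and Evc2 lay beyond 2 spreads, 2 of the 29 genes, as did 9.22% of named genes. Mks1, a protein of the transition zone, was at 7.56 and 7.15 in LSK and at 7.46 and 7.68 in MP. Its Smo-deficient LSK value was the only one of the 4 below the array median, and it has 1 probe set. Its genotype difference was -0.41 for LSK, where the spread was 0.18, and 0.22 for MP. Evc2 had lower values on the Smo-deficient arrays of both populations, with differences of -0.37 in LSK and -0.26 in MP. In MP, Arl3 alone of the 29 lay beyond 2 spreads, as did 10% of named genes, with a difference of -0.49 (1.41-fold) against a spread of 0.23. After quantile normalization it was -0.37.

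Kif3a, a motor subunit of kinesin-2, had Smo-deficient minus WT above 0 in LSK and below 0 in MP on all 4 of its probe sets. It is described here, like Mks1, because its values stood out when they were seen. On 1420375_at it was at 8.85 and 9.02 in LSK and at 9.04 and 8.61 in MP. The Smo-deficient MP array was the lowest of the 4. Smo-deficient minus WT was 0.18, 0.17, 0.21 and 0.04 in LSK on the 4 probe sets and -0.44, -0.66, -0.65 and -0.27 in MP, in the same order, and the 2 middle values in MP pass the 1.5-fold line. The probe sets share the same 4 RNA samples and are not replicates. Its partner Kif3b was at 8.40 and 8.48 in LSK and 8.60 and 8.36 in MP, and its genotype difference in MP was -0.24, -0.17, 0.06 and -0.26 on 4 probe sets. The difference between the LSK and MP genotype differences was 0.61 for Kif3a and -0.64 for Mks1, beyond 2 spreads for these 2 of the 29 genes and for 8.99% of named genes, and it was not tested.

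**Figure D5:**
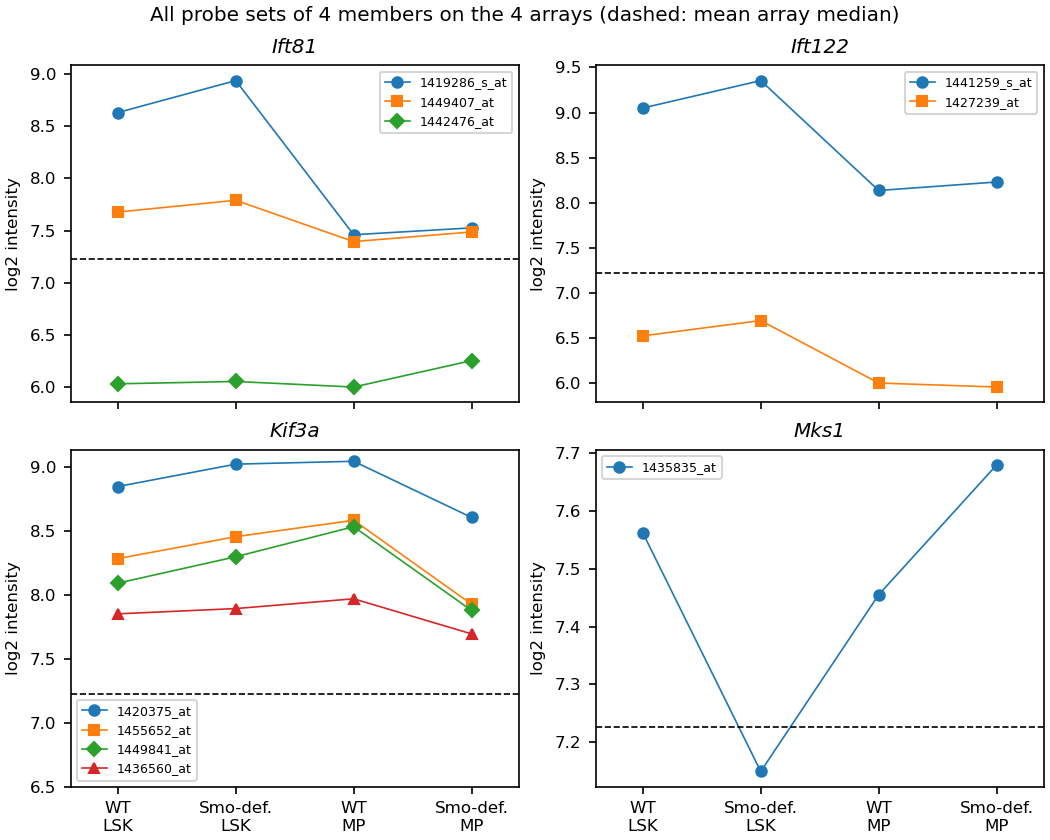
Log2 intensity (vertical axis, a different range in each panel) of every probe set of Ift81, Ift122, Kif3a and Mks1 on the 4 arrays, with the mean array median dashed; lines join the values of 1 probe set and show no time course. The step from LSK to MP is large on 1 Ift81 probe set and small on the others, and all 4 Kif3a probe sets have their lowest value in Smo-deficient MP.

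The genotype differences of the dim genes Bbs2, Cep290 and Bbs7 are given as values below the array median. Bbs2 differed by 0.44 between genotypes in LSK and 0.02 in MP. Cep290 differed by -0.55 in MP and 0.16 in LSK. Bbs7 differed by -0.30 in LSK and -0.48 in MP. Genes of other ciliary lists past 1.5-fold by genotype were Kif17 (0.59 in MP), a motor that is homodimeric, and 1 cilium disassembly gene, Kif2a (-0.59 in MP), both named after their values were seen. The cilium disassembly genes differed between genotypes by a median of -0.29 in LSK and of -0.47 in MP. Above 0 were 0 of 7 in LSK and 2 of 7 in MP. Of 11904 named genes past the filter, 5575 were above 0 in LSK and 4799 in MP. The spike controls differed between the MP arrays by -0.32, and their part in these MP values was not tested.

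Markers of other cells differed between the genotypes on the same arrays. In LSK, 9 of 9 neutrophil markers were higher in the Smo-deficient array (median 0.85), with summed intensities of 83046 in WT and 134914 in Smo-deficient LSK, and of 101976 and 116950 in MP (median 0.21). The macrophage markers had medians of 0.65 in LSK and -0.02 in MP and summed to 2390 and 3759 in WT and Smo-deficient LSK. B cell markers had medians of 0.56 in LSK and 0.28 in MP and summed to 2450 and 3501 in LSK. The T and NK cell, mature erythroid, mast cell and stroma lists had medians of 0.09, 0.40, -0.17 and -0.15 in LSK. LSK markers summed to 30604 in WT and 40358 in Smo-deficient LSK. MP markers had medians of 0.61 in LSK and 0.46 in MP, with 6 of 9 above 0 in each. Past 1.5-fold were 8 of 9 in LSK and 4 of 9 in MP, against 4.07% and 4.81% of named genes. Csf1r (1.21 in LSK and 1.09 in MP) and Elane (0.87 and 0.77) were among those above 0. Those below 0 were Gata1 (-0.79 and -0.54), Klf1 (-0.69 and -0.48) and Car1 (-1.40 and -0.31). The part of these shifts in the genotype differences of the cilium genes was not tested.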

How the data were processed

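Total RNA of LSK and MP cells, 20 ng per sample, was amplified in 2 cycles and hybridised to Affymetrix mouse arrays, per the labels' protocols. The authors deposited intensity values of the 4 arrays in 1 table and made them with RMA, per the submitters' processing notes, with the version not given. RMA output is usually log2, but these values lie between 12.3 and 44290.5. They were taken as linear, and log2 was computed with no pseudocount. The deposited values are not on 1 common distribution: the array medians were alike, but upper quartiles ran from 545.0 to 611.6, and quantile normalization still moved values.

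Of 45101 probe sets, 64 controls were set aside. The platform annotation gave 1 gene for 34945, several for 932 and none for 9160. Each gene was read from the probe set, among those naming it alone, with the highest mean signal. Probe sets with a mean above the 50th percentile (log2 7.23) entered the test. LSK minus MP was tested with limma 3.58.1 in R 4.3.3 (lmFit and eBayes with a trend on mean level, two-sided), pool as a block because both populations came from the same pooled marrow, Benjamini-Hochberg over 22518 probe sets. The residual is the disagreement of the 2 pools, which also differ in genotype, about LSK minus MP, so the p-values say nothing of variation among mice of 1 genotype. The scripts were tested on simulated data.

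The spread was computed in 20 bins of mean level. Promoters came from a RefSeq table of build GRCm38.p6. Values are printed for each array for the gene with the brightest probe set of each functional group, for every gene called or past 1.5-fold by genotype, and for genes below the median on all arrays; of the 8 related gene lists at most 4 genes each. The genes, the lists and the 10 marker lists were chosen with earlier results of these data known. Alternatives covered the block, normalization, filter, trend, pseudocount, fold threshold, averaging of probe sets and plain _at probe sets alone, the last chosen after seeing the data. The number of arrays limits the precision.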

Additional observations from a re-analysis of the deposited data

Results flagged for a closer look

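Flagged were genes past the filter whose genotype differences (Smo-deficient minus WT) had opposite signs in LSK and MP and lay at least 1.5-fold apart. Kif3a and Mks1 met this rule. Opposite signs are not particular to them. Ift27 (-0.19 in LSK and 0.20 in MP) has them with a smaller gap, and Cep290, too dim for the filter, with a larger one (0.71). Subtracting MP from LSK gave 0.614 for Kif3a, with 0.18 in LSK and -0.44 in MP on its brightest probe set. It gave -0.637 for Mks1, with -0.41 in LSK and 0.22 in MP on its single probe set. Each value is a contrast of 4 arrays with 1 array per group, and the difference between the populations was not tested.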

How the results depend on the processing

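The count of cilium genes called higher in LSK was 9 of 29 tested with the pool as a block and 3 of 29 with no replicate block. It was 5 of 22 tested with plain _at probe sets alone, an alternative chosen after seeing the data. It was 8 after quantile normalization, where Bbs4 was lost, 8 with all probe sets of a gene averaged, and 9 with cyclic loess normalization, without a filter, with a filter at the 25th percentile and without a trend. The count called lower was 0 except when all probe sets were averaged, where 1 gene, Bbs5, was called. Without a filter or with the lower one, 7 of the 9 were kept, Bbs4 and Evc2 were lost, and Bbs1 and Gpr161 were gained. With averaging, 27 genes were tested and 7 of the calls were kept. Kifap3 was tested and lost (adjusted p = 0.0631), Bbs4 fell below the filter and was not tested, and Ift80 was gained. With cyclic loess and without a trend, all 9 were kept. Counts of genes past 2-fold by genotype were 0 with quantile and cyclic loess normalization, with averaging and without a filter, and the count past 1.5-fold, run on the deposited values with the brightest probe sets alone, was 0. The median LSK minus MP over the 34 genes ran from 0.16 to 0.23. The median genotype differences stayed within 0.05 of 0 and changed sign in both populations with scaling, to -0.0026 in LSK after quantile normalization and to 0.018 in MP after cyclic loess. The 26 genes above the median on all arrays became 21 when all probe sets of a gene were averaged. The share of all named genes was not computed with averaging, so the 21 have no background to be read against. The 9 called genes, and the genotype values of Arl3, Bbs2, Bbs7, Cep290, Kif3a and Mks1, kept their direction in the alternatives run for them. Leaving out a replicate was not possible, because each group has 1 array. No depth applies to arrays. The precision of every value is limited by 1 array per group, by amplification from 20 ng of RNA and, for genes below the array median, by signal close to background.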
